A study of Rattus norvegicus with 12 samples.

Results

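The genes described here encode the proteasome, the protease that degrades ubiquitin-tagged proteins, together with its regulators and assembly factors. Members were the symbols that start with Psma to Psmg followed by a number, taken from array probe sets annotated with a single gene symbol. Where a gene had more than 1 such probe set, the one with the highest mean signal over the 6 gene arrays stood for it. This gave 46 genes among 18304 symbols with a single-symbol probe set, namely 18 core genes (Psma and Psmb), 19 cap genes (Psmc and Psmd), 3 activators (Psme), 4 assembly chaperones (Psmg) and 2 genes outside these classes. One of the latter, Psmc3ip, matches by name alone, because its product acts in meiotic recombination and is no proteasome subunit. Psma3, Psma3l, Psmc3 and Psme2 were measured only by probe sets with several symbols and are not members.

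The core proteasome is a barrel of stacked rings, with alpha subunits (Psma) gating the entry and beta subunits (Psmb) lining the chamber. Psmb5, Psmb6 and Psmb7 carry the constitutive peptidase sites, and Psmb8, Psmb9 and Psmb10 take their places in the immunoproteasome, a form that interferon induces and that favours peptides for antigen presentation. The cap binds ubiquitin chains, removes them and threads the substrate into the core with a ring of ATPases (Psmc). In the testis the proteasome also takes part in germ cell development, where the alpha subunit Psma8 serves meiotic cells.

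The study used primary Sertoli cells, the somatic cells that support germ cells, isolated from 9-day-old rats. Cells grew for 24 h with 10% fetal bovine serum in the medium and then stayed for another 24 h as control, which the design text names as solvent treated, or with 0.1 mM of a compound labelled MBP, an abbreviation left unexplained by the labels. Strain, pooling of animals and a purification step for Sertoli cells are not given in the labels. Whole-transcript gene arrays were run on 3 control and 3 MBP samples, numbered 1 to 3 in each group. What a number stands for is not labelled, and nothing says that samples came from separate animals or isolations. The p-values therefore cover only the spread among these samples, part of which may be technical.

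Values are log2 signals that the authors normalized before deposit. A probe set was called above background on an array when its signal exceeded the 95th percentile of 1153 intron control probe sets of that array, and 35 of the 46 members were above background on all 6 arrays. The background level lay between 5.67 and 5.88 on the arrays of numbers 1 and 2 and at 6.20 and 6.19 on the control and MBP arrays of number 3. Between 7568 and 8178 of 27342 probe sets were above background on the arrays of numbers 1 and 2, against 6647 and 6661 on those of number 3. Of 10 Sertoli cell markers measured, 4 were above background on all arrays, namely Wt1, Gata4, Fshr and Clu, while Amh, Inha, Cldn11 and Dhh were not above it on any. All 9 measured markers of peritubular myoid cells and fibroblasts were above background on all arrays. None of 6 macrophage and leukocyte markers and none of 4 endothelial markers were above it on all arrays, and 1 of 5 germ cell markers and 1 of 5 Leydig cell markers were.

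Promoters of 4 catalytic subunits are shown because these 4 passed the test between sample numbers described below, and among members above background Psmb6 had the largest difference there. The sequences are the 250 bases before the start of the gene in RefSeq, build GRCr8, read 5′ to 3′ on the strand of the gene. They lie at chr20:4657032-4657281 on the minus strand for Psmb8, chr20:4668750-4668999 on the plus strand for Psmb9, chr19:50743293-50743542 on the minus strand for Psmb10 and chr10:55737638-55737887 on the plus strand for Psmb6. Capitals mark matches on either strand to 6 motifs. They are the core of an interferon response element (GAAA, any NN, then GAAA), the core of an interferon gamma site (TTCNNNGAA), the core of an antioxidant response element (TGACNNNGC), CCAAT, an NF-kappaB site (GGGA, any N, then TTTCC) and a cAMP response element (TGACGTCA).
Psmb8: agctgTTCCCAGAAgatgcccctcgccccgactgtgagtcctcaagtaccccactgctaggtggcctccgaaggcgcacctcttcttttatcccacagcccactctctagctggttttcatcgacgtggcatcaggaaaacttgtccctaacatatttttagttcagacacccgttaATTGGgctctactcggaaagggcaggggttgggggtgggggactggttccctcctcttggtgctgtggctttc
Psmb9: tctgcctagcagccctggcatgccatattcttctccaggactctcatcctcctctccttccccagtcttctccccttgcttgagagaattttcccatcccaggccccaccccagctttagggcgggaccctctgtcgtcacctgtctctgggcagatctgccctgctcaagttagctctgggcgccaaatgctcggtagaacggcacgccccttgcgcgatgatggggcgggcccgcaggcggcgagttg
Psmb10: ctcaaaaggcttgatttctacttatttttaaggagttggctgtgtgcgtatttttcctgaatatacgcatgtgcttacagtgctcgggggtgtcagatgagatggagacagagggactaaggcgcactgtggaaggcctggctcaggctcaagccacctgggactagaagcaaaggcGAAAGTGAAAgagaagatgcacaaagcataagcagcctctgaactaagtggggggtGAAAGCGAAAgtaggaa
Psmb6: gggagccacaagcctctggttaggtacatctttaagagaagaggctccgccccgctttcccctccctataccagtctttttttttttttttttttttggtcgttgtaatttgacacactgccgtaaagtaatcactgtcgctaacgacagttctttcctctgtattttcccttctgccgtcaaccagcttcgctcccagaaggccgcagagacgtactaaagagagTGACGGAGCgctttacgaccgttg

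Psmb10 had a pair of interferon response matches, starting 73 and 17 bases before the gene start. Psmb8 had a TTCNNNGAA match 245 bases and a CCAAT match, on the opposite strand, 73 bases before the start. Psmb6 had 1 TGACNNNGC match, 24 bases before the start, and Psmb9 had no match to the 6 motifs marked. No marked matches overlapped in these windows. Promoters were found for 41 of the 46 members, and the interferon response motif stood in 4 of them (9.8%) against 3.4% of 33469 RefSeq promoters of the same length. The share for TGACNNNGC was 14.6% against 10.1%, that for TTCNNNGAA 9.8% against 7.7%, and that for CCAAT 46.3% against 34.0%. TGACGTCA stood in 1 member promoter (2.4%, against 1.6%) and the NF-kappaB motif in 0 (against 0.3%). A further motif, GGGCGG (a GC box, not marked in the sequences), stood in 28 of 41 member promoters (68.3%) against 30.5% of all. These shares were not compared at matched base composition, and a match is a run of letters, not a shown binding site.

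The first comparison asked whether proteasome genes differed between MBP and control cultures. No member passed the test, and the estimated differences were small. In limma's test with Benjamini-Hochberg adjustment over 27342 probe sets, 0 of 46 members were called, against 0% of all probe sets, and every member had an adjusted p of 1. At an unadjusted p under 0.05 there were 0 members and 351 of all probe sets. With the replicate number as a block, limma again called 0 members, with a smallest adjusted p of 0.865, and 0 members and 1255 of all probe sets had an unadjusted p under 0.05. The 95% interval of the difference lay within 1 log2 unit of 0 for 44 of 46 members, the exceptions being Psmb6 and Psmb10. All intervals given come from the fit without the block, so they also carry the spread between sample numbers. Within numbers 1 to 3 the differences were -0.18, -0.12 and 0.28 for Psmb6. For Psmb10 they were -0.19, 0.032 and -0.16. In no member were the 3 MBP arrays all above or all below the 3 control arrays, a separation seen in 3.43% of all probe sets (1.52% with MBP lower). Of the 6341 probe sets above background, 92 had it. In Psmd13 and Psmd14 the highest MBP and the lowest control signal were the same as rounded, at 8.9655 and 8.3654.

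Most members had slightly lower means in the MBP arrays. The estimate was below 0 for 39 of 46 members, with a median difference of -0.058 on the log2 scale and a range of -0.15 (Psma5) to 0.15 (Psmd10). Over all probe sets 14648 of 27342 (53.6%) were below 0, with a median of -0.0065, and over the 6341 probe sets above background 68.6% were below 0, with a median of -0.030. The 35 members above background had 31 estimates below 0 and a median of -0.063. Within sample numbers the median over members was -0.071 in number 1, -0.047 in number 2 and -0.064 in number 3. MBP was below its same-numbered control in all 3 pairs for 14 members (30.4%), against 12.3% of all probe sets. Among those above background the counts were 13 of 35 (37.1%) and 21.7%. The median over members rested on single arrays, since leaving out MBP array 3 gave 0.011, leaving out control array 2 gave -0.00030 and leaving out control array 3 gave -0.14. Quantile normalization brought it to -0.032, with 32 members below 0.

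**Figure D1:**
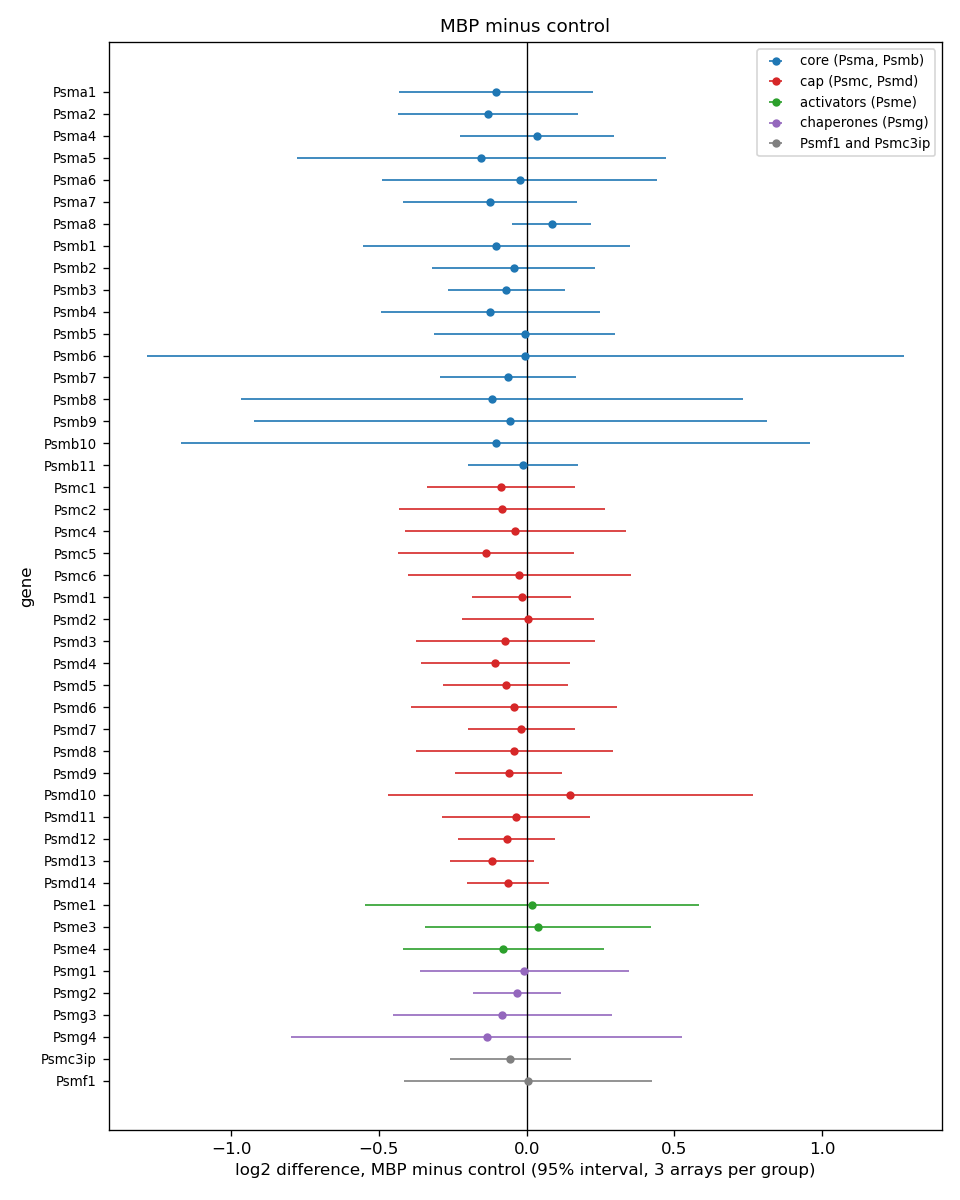
Difference between MBP and control means on the log2 scale (x axis) for each of the 46 genes (y axis), with the 95% interval from limma on 3 arrays per group, coloured by class. Points of 39 genes lie left of 0, every interval includes 0, and the intervals of Psmb6 and Psmb10 are the widest.

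Among the core genes, 16 of 18 estimates were below 0 and the median was -0.066. The 6 alpha ring genes other than Psma8 had a median of -0.11, and the 4 structural beta genes Psmb1 to Psmb4 had one of -0.086. Psma2, an alpha ring subunit, had signals of 8.82, 8.67 and 8.65 in control arrays 1 to 3 and of 8.72, 8.70 and 8.33 in the MBP arrays. The groups overlapped, MBP array 3 being the lowest, and the difference was -0.13 (95% interval -0.43 to 0.17, unadjusted p 0.331 in limma's fit across all probe sets).

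Psma8, the alternative alpha subunit of meiotic cells, was not above background on any array. Its signals were 2.55, 2.43 and 2.48 in control arrays and 2.55, 2.61 and 2.55 in MBP arrays. Psmb11, the catalytic subunit of the thymus proteasome, was likewise below background on every array, at 3.05, 3.00 and 2.92 in control and 2.86, 3.08 and 2.98 in MBP. For neither of these tissue-restricted subunits do the arrays give more than an upper bound.

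The constitutive catalytic subunits were above background on every array. Psmb5, the chymotrypsin-like subunit (chr15:37143059-37147105 in Rnor_5.0, the build of the array annotation), had signals of 7.68, 7.85 and 7.45 in control and 7.61, 7.80 and 7.54 in MBP arrays. Psmb7, the trypsin-like subunit, had 10.24, 10.35 and 10.13 in control and 10.24, 10.26 and 10.02 in MBP arrays. For both genes the groups overlapped, with differences of -0.0067 (95% interval -0.31 to 0.30) and -0.064 (-0.29 to 0.17). Psmb6, the caspase-like subunit, had signals of 9.46, 9.54 and 7.98 in control and 9.28, 9.42 and 8.26 in MBP arrays. Array 3 was the lowest in both groups and the difference between groups was -0.0043 (95% interval -1.29 to 1.28), an estimate that was 0.041 when both probe sets of the gene were averaged.

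The immunoproteasome subunits varied with the sample number and were not above background on the arrays of number 3. Psmb8 and Psmb9 lay near or below background on all arrays. Psmb8 (chr20:6070357-6073320 in Rnor_5.0), which replaces Psmb5, had signals of 6.05, 5.93 and 5.16 in control and 5.83, 5.97 and 4.99 in MBP arrays, and was above background on the 4 arrays of numbers 1 and 2. Psmb9 (chr20:6052972-6058393), which replaces Psmb6, had 5.21, 5.83 and 4.79 in control and 5.23, 5.73 and 4.71 in MBP arrays, and only control array 2 was above background. Psmb10 (chr19:48776577-48779068), which replaces Psmb7, had 6.74, 7.27 and 6.10 in control and 6.55, 7.30 and 5.94 in MBP arrays, above background on the 4 arrays of numbers 1 and 2. For all 3 genes the number 3 arrays were the lowest of their group, and the groups overlapped. The differences between MBP and control were -0.12 (95% interval -0.97 to 0.73) for Psmb8, -0.055 (-0.92 to 0.81) for Psmb9 and -0.11 (-1.17 to 0.96) for Psmb10.

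**Figure D2:**
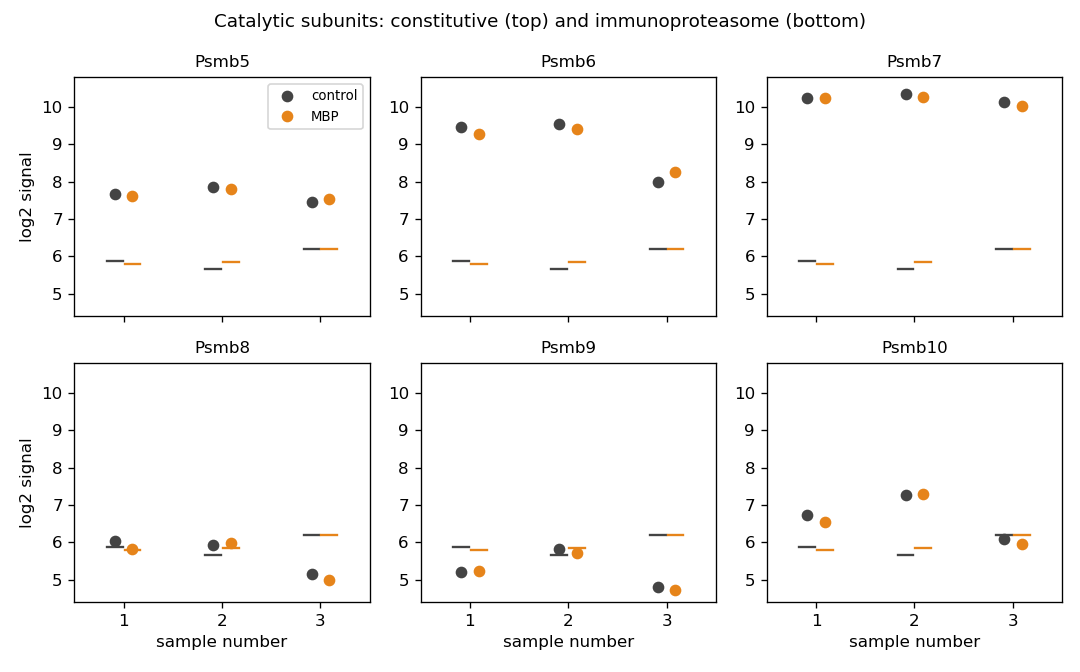
Log2 signal (y axis) of the constitutive catalytic subunits (top) and the immunoproteasome subunits (bottom) by sample number (x axis), each point 1 array and each short line that array's background level. In all 6 panels the number 3 points are the lowest of their group, and those of Psmb8, Psmb9 and Psmb10 lie under the background lines.

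In the cap, 17 of 19 estimates were below 0, with a median of -0.061. They included all 5 base ATPases (Psmc1, Psmc2, Psmc4, Psmc5 and Psmc6) and all 8 lid genes. Psmd13, a structural lid subunit, had the smallest unadjusted p of all members. Its signals were 9.00, 9.06 and 8.97 in control and 8.86, 8.97 and 8.85 in MBP arrays, with control array 3 and MBP array 2 at about the same signal. The difference was -0.12 (95% interval -0.26 to 0.024, unadjusted p 0.0883 in limma's fit, or 0.0598 with the replicate block). Psmc5, an ATPase of the base, had 6.84, 6.96 and 6.84 in control and 7.00, 6.61 and 6.60 in MBP arrays. MBP array 1 was the highest of all 6, and the difference was -0.14 (95% interval -0.44 to 0.16, limma's unadjusted p 0.297). Estimates above 0 were those of Psmd2, a scaffold of the base, at 0.0040, and of Psmd10, the assembly chaperone gankyrin, at 0.15. The probe set of Psmd10 covers 312 bases of chromosome 2 while the gene lies on chromosome X, and it was not above background on any array.

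The activators dock onto the core ends in place of the cap. Psme4, the nuclear activator PA200 with a known role in spermatogenesis, had signals of 7.80, 7.64 and 7.92 in control and 7.87, 7.44 and 7.81 in MBP arrays, with number 2 the lowest in both groups. Its difference was -0.079 (95% interval -0.42 to 0.26). Psme3, the nuclear PA28 gamma, was read from a probe set that covers 756 bases of chromosome 11 while the gene lies on chromosome 10. That probe set was below background on every array, at 3.12, 3.10 and 3.12 in control and 3.20, 3.43 and 2.81 in MBP arrays. On chromosome 10, a probe set annotated with Psme3, Aoc3 and G6pc together was above background on all 6 arrays, with a mean signal of 8.90 and a difference of 0.016, and its signal cannot be given to 1 of the 3 genes. Psme1, the alpha subunit of PA28, had a difference of 0.018 (95% interval -0.55 to 0.58).

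The chaperones Psmg1 to Psmg4 guide assembly of the alpha ring, and Psmg1 alone among them was above background on all arrays. All 4 estimates were below 0, with a median of -0.057. Psmg2 had signals of 6.10, 6.04 and 5.98 in control and 6.04, 6.05 and 5.94 in MBP arrays, with a difference of -0.033 (95% interval -0.18 to 0.11). Psmg3 had 5.46, 5.82 and 5.42 in control and 5.52, 5.66 and 5.26 in MBP arrays, with a difference of -0.082 (95% interval -0.45 to 0.29), and 1 of its 6 signals was above background. In both genes the groups overlapped and the number 3 arrays were the lowest of their group. Psmf1, the proteasome inhibitor PI31, had 7.62, 7.88 and 8.12 in control and 7.66, 7.85 and 8.13 in MBP arrays, a difference of 0.0050 (95% interval -0.41 to 0.42). Psmc3ip was below background throughout, between 5.34 and 5.57.

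The second comparison asked whether members differed between sample numbers 1, 2 and 3, each of which holds 1 control and 1 MBP array. Most members had their lowest mean in number 3 (40 of 46, against 37.1% of all probe sets), as did 30 of the 35 above background, against 43.1% of such probe sets. Among members above background on all arrays, Psmb6 had the largest difference. In limma's moderated F test, with MBP as an additive term, 12 of 46 members (26.1%) were called at an adjusted p under 0.05, against 9.62% of all probe sets and 24.1% of those above background. Of the 35 members above background, 8 (22.9%) were called, a share near that background. Called with the lowest mean in number 3 were 10 of the 46 members, against 3.9% of all probe sets. Among those above background it was 6 of 35 members, against 10% of such probe sets. Psmb10, Psmb9, Psmb6, Psmb8, Psmg4, Psme1, Psma5, Psmb1, Psmd6 and Psma1 made up this group. Psmc6, an ATPase of the base, was called with its highest mean in number 1 (adjusted p 0.0398 in limma's F test), and Psmf1 with its highest in number 3 (0.0300). Psma1 was the last gene called, at 0.0491, and Psma6 the next one not called, at 0.0560.

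**Figure D3:**
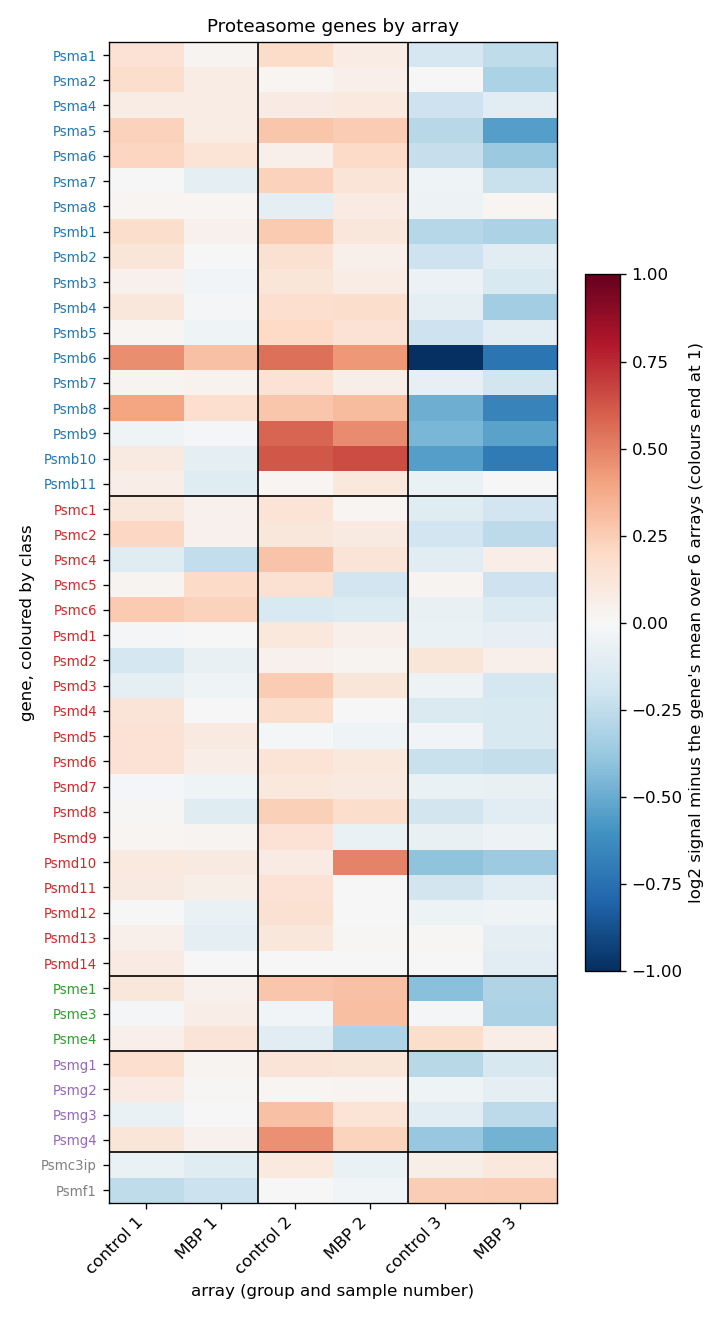
Log2 signal of each of the 46 genes (y axis, by class) on each array (x axis, by sample number), as the difference from the gene's mean over the 6 arrays, with colours ending at 1 log2 unit. The number 3 columns are blue for most core genes, deepest for Psmb6, Psmb8, Psmb9 and Psmb10, of which the last 3 were not above background in number 3, while Psmf1 is red there.

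The size of the difference is given as the number 3 mean minus the mean of numbers 1 and 2. For Psmb6 it was -1.30, a signal 2.47-fold lower (adjusted p 0.0136 in limma's F test), at -1.52 in the control arrays and -1.09 in the MBP arrays. The other probe set of Psmb6 gave -0.88, with an adjusted p of 0.0651 in the same test. Both probe sets were thus lower in number 3, and the brighter one was past the threshold. The brighter one lies on chromosome 10, as the gene does, but its annotated transcripts lie on chromosomes 1 and 10. That either probe set reads this gene alone was not checked.

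The 3 immunoproteasome subunits also passed the test, but their number 3 signals were not above background, so the size of the difference is not known. The measured means of numbers 1 to 3 were 6.65, 7.28 and 6.02 for Psmb10 (adjusted p 0.00889 in limma's F test), 5.94, 5.95 and 5.08 for Psmb8 (0.0145) and 5.22, 5.78 and 4.75 for Psmb9 (0.00892). In each, the measured signals of both number 3 arrays were below those of every array of numbers 1 and 2. A bound can be given for Psmb10 alone, which was at least 2.13-fold higher in number 2 and at least 1.37-fold higher in number 1 than in number 3. Here the mean of the number's 2 arrays was set against the background level of the number 3 arrays. For Psmb8 and Psmb9 the signals in numbers 1 and 2 did not exceed that level, so neither a fold nor a bound follows.

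Psmg4, a chaperone of the alpha ring, had signals of 5.94, 6.28 and 5.44 in control and 5.86, 6.04 and 5.35 in MBP arrays, and passed the test (adjusted p 0.0159 in limma's F test). Its number 3 signals were not above background and its number 1 signals did not exceed the number 3 background either, so no size is given. Psme1, which interferon induces together with the immunoproteasome, had 8.85, 9.01 and 8.31 in control and 8.77, 9.02 and 8.43 in MBP arrays. Both number 3 arrays were below all others, by -0.54 or 1.46-fold (adjusted p 0.0232 in limma's F test). Psmf1, the inhibitor, differed the other way, by 0.37 in the control and by 0.37 in the MBP arrays.

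The other called members were above background on every array. Psma5, an alpha ring subunit, had signals of 7.75, 7.80 and 7.25 in control and 7.59, 7.78 and 6.97 in MBP arrays, and was 1.54-fold lower in number 3 (adjusted p 0.0247 in limma's F test). Psmb1, a structural beta subunit, had 8.88, 8.97 and 8.42 in control and 8.75, 8.82 and 8.39 in MBP arrays, and was 1.36-fold lower (0.0299 in limma's F test). In both, each number 3 array was below every array of numbers 1 and 2. Psmd6, a lid subunit, had 9.10, 9.09 and 8.73 in control and 9.02, 9.06 and 8.71 in MBP arrays, and was 1.27-fold lower (0.0444 in limma's F test). Psma1, an alpha ring subunit, had 9.06, 9.10 and 8.75 in control and 8.95, 8.99 and 8.66 in MBP arrays, and was 1.25-fold lower (0.0491). These 2 genes also had both number 3 arrays below all others. Psmc6 followed another order, with 8.45, 8.03 and 8.11 in control and 8.41, 8.05 and 8.05 in MBP arrays, so that number 1 stood apart in both groups.

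Among members not called, the base ATPase Psmc2 differed in number 3 by -0.34 (adjusted p 0.0562 in limma's F test), Psma6 by -0.45 and Psmc1, another ATPase, by -0.23 (0.101). The catalytic subunits Psmb5 and Psmb7 differed by -0.24 (adjusted p 0.0917 in limma's F test) and -0.20 (0.155), so among the 3 constitutive sites Psmb6 alone passed the test, and the difference between them was not tested. Psmd14, the deubiquitinase of the lid, differed by -0.074 (adjusted p 0.611 in limma's F test), and Psmd13, which had the smallest p between MBP and control, by -0.064 (0.478).

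The same order was common over all members, called or not. Number 3 was below numbers 1 and 2 in both the control and the MBP arrays for 32 of 46 members (69.6%), against 19.2% of all probe sets and 33.9% of those above background. Of the 35 members above background, 25 (71.4%) had this order. By class it held for 16 of 18 core genes, the exceptions being Psma8 and Psmb11, for 11 of 19 cap genes, for 4 of 4 chaperones and for 1 of 3 activators. Among members above background on all arrays it held for 13 of 13 core genes and for 10 of 18 cap genes. Of the chaperones, only Psmg1 was above background on all arrays. The median difference of number 3 was -0.22 over all members, -0.28 over the core and -0.13 over the cap, against -0.0064 over all probe sets and -0.020 over those above background. It was -0.22 over the 35 members above background, -0.24 over the 13 core genes among them and -0.13 over the 18 cap genes. No test of core against cap was made. Psme4 and Psmd2 had higher means in number 3 than in numbers 1 and 2, by 0.18 and 0.13, and neither passed the test.

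**Figure D4:**
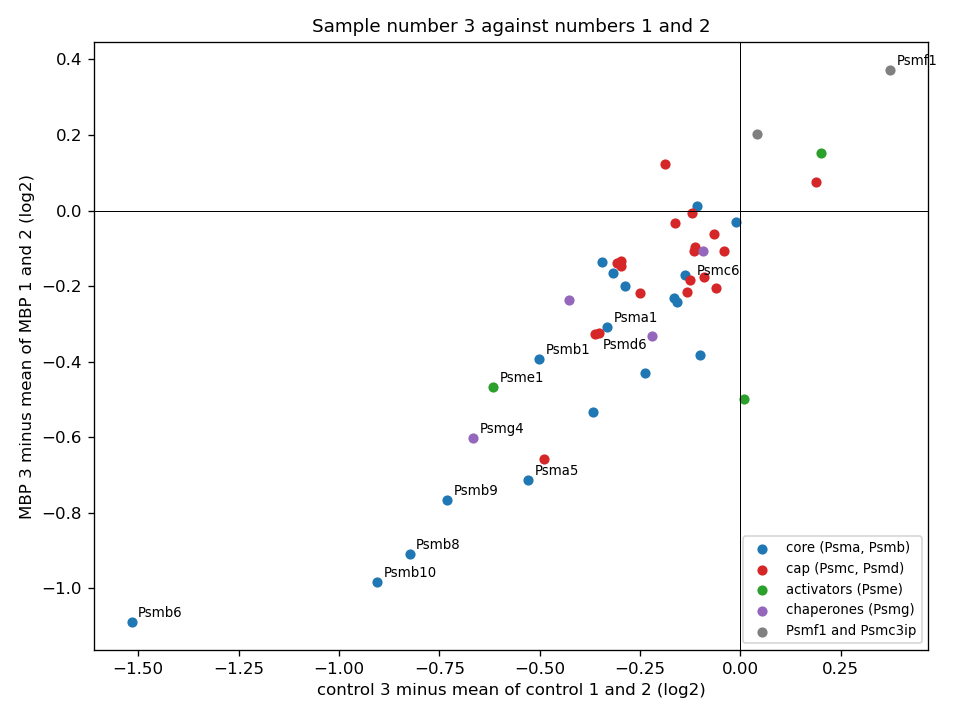
Difference between number 3 and the mean of numbers 1 and 2 in the control arrays (x axis) and in the MBP arrays (y axis), both on the log2 scale, for each of the 46 genes, with the 12 called genes named. Most points lie below 0 on both axes, Psmb6 at -1.52 and -1.09 lies lowest, and Psmf1 at 0.37 and 0.37 lies highest, while of the named genes Psmb8, Psmb9, Psmb10 and Psmg4 are at measured signals not above background in number 3.

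The number of calls between sample numbers depended on the fit. When only probe sets above background were fitted, 28 of 35 members (80.0%) were called, against 63.9% of all probe sets in that fit. With any 1 of the 6 arrays left out, which leaves 1 residual degree of freedom, limma called 0 members and 0 of all probe sets, with smallest adjusted p-values of 0.137 to 0.243 among members, while 17 to 25 members had an unadjusted p under 0.05.

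Other measures moved with the sample number. Of the 9 measured myoid and fibroblast markers, 8 passed the same F test, against 9.62% of all probe sets and 24.1% of those above background. The 9 log2 signals averaged 9.05, 9.16 and 10.13 in control arrays 1 to 3 and 9.00, 9.00 and 10.10 in the MBP arrays. Of the 8, Tagln, Myh11, Cnn1, Des, Actg2, Col1a1 and Col1a2 were highest in number 3, by 0.49 (Col1a1) to 2.25 (Actg2). Thy1 was highest in number 1, and Pdgfrb, which did not pass, had a number 3 difference of 0.077. Of the 10 measured Sertoli markers 2 passed, Sox9 with its highest mean in number 3 (5.98, 6.13 and 6.87 in numbers 1 to 3, adjusted p 0.0231 in limma's F test) and Clu with its lowest in number 1 (8.72, 9.52 and 9.54, 0.0101). The number 3 differences of the 10 markers ran from -0.19 (Nr5a1, not above background in number 3) to 0.81 (Sox9), with a median of 0.12 and 4 below 0. Those above background on all arrays differed by -0.18 (Fshr), -0.045 (Wt1), 0.12 (Gata4) and 0.42 (Clu). Background was also highest in number 3, as given above. The part of cell makeup or of background in the proteasome differences was not tested, and in bulk RNA fewer cells of a type and less RNA per cell cannot be told apart.

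The remaining ubiquitin-proteasome pathway was described with lists, none of which had a gene called between MBP and control. Of 8 measured regulators of proteasome levels or activity, 6 had estimates below 0, with a median of -0.057. Ngly1, the glycanase that helps activate the transcription factor Nfe2l1, was below background and had a difference of -0.14, and Zfand5, a proteasome activator, had one of -0.11. Of 11 cap partners 8 were below 0 (median -0.028), with Sem1, a small lid subunit, at -0.14 and Usp14, a deubiquitinase of the cap, at -0.14. Of 7 ubiquitin and activating enzyme genes 5 were below 0 (median -0.027), with Uba1, the main activating enzyme, at -0.043 and Ube2k, a conjugating enzyme, at -0.074. Of 12 genes of the unfoldase Vcp and its cofactors 7 were below 0 (median -0.0050), with the cofactors Faf1 at -0.069 and Faf2 at 0.040. The smallest unadjusted p in these 4 lists was 0.216 in limma's fit.

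Between sample numbers, the F test called 1 of 8 regulators, Akirin2, 3 of 11 cap partners, 2 of 7 ubiquitin and activating enzyme genes and 1 of 12 Vcp genes. The share called was 9.62% over all probe sets and 24.1% over those above background. Uba6 and Ube2k, an activating and a conjugating enzyme, had their highest means in number 3. They exceeded the mean of numbers 1 and 2 by 0.46 and 0.54. The cap partners Ubqln2, a shuttle for ubiquitinated proteins, and Adrm1 were also highest there, by 0.41 and 0.28. Uchl5, the other cap partner called, was highest in number 1. Its number 3 signals were not above background, so the order of numbers 2 and 3 is not known. Ubxn1, a Vcp cofactor, had its lowest mean in number 3, where its MBP array was not above background. The median of the number 3 difference was -0.15 over the regulators, -0.014 over the cap partners, -0.028 over the ubiquitin and activating enzyme genes and within rounding of 0 over the Vcp list. The difference between these lists and the core was not tested.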

How the data were processed

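The series holds 12 arrays, of which the 6 gene arrays were used here. The microRNA arrays were not used. The deposited table holds log2 signals, normalized by the authors, per the values themselves. MAS5 stands in the submitters' processing notes without a version or a stated role, so how the signals were normalized is not given here. Beside annotation, which was read, the authors' annotated table holds 6 signal columns that match no sample label, and these stayed unused. Genome positions are Ensembl transcripts on Rnor_5.0 from that annotation, and promoters come from RefSeq, build GRCr8. Of 27342 main probe sets, 19812 had 1 symbol, 2167 several and 5363 none.

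All main probe sets were fitted together by lmFit and eBayes of limma 3.58.1 (R 4.3.3, two-sided tests), with Benjamini-Hochberg adjustment and a threshold of 0.05. The script was tested on simulated data. Between MBP and control no other term was fitted. Sample numbers were compared by a moderated F test with MBP as a term. Precision is limited by the number of arrays. Alternatives were a replicate block, centring, quantile normalization, a background filter, a variance trend, averaged probe sets, removal of a level trend, and leaving out arrays or numbers.

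Sample numbers were checked for pairing. Deviations of same-numbered control and MBP arrays from their group means correlated across probe sets at 0.567, 0.603 and 0.779, against -0.535 to 0.048 for different numbers. Deviations from a group mean sum to 0 within the group, so positive values for same numbers force negative ones among different numbers. The contrast is thus partly built in. Each same-numbered pair correlated positively, and the numbers were taken to pair the samples. This rests on the data, because nothing but a shared number is labelled.

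Signals in every array are given for the 2 members of smallest unadjusted p per class, the catalytic pairs, Psma8, Psmb11, Psmf1, Psmc3ip and the 5 members of smallest adjusted p between numbers, and values for 2 genes per pathway list. Psme1 and the other genes named between numbers were picked with their values in view. The members and lists were chosen with earlier results of these data known.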

Additional observations from a re-analysis of the deposited data

How the results depend on the processing

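No member was called between MBP and control under any alternative run, the replicate block included (0 of 46, as without it). The median over all members (-0.058) was the same with the replicate block, and the alternatives that moved it by more than the SD of its values in the 3 numbers were -0.046 without number 2, -0.083 after centring, -0.032 after quantile normalization and -0.033 with the level trend removed. Leaving out 1 array gave -0.14 to 0.011. Here and below, such fits keep the array's same-numbered partner, so differences between sample numbers enter them. The core median ranged from -0.18 to 0.038 on leaving out 1 array. The cap median was -0.036 without number 2, -0.090 without number 3, -0.086 centred, -0.029 quantile normalized and -0.030 without the level trend, and -0.11 to -0.0015 on leaving out 1 array. The activator median ran from -0.10 to 0.17 on leaving out 1 array. The chaperone median was -0.0083 above background (1 gene), -0.087 without number 1, -0.049 without number 2, -0.083 centred, -0.045 quantile normalized and -0.045 without the level trend, with -0.15 to 0.050 on leaving out 1 array.

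Calls between numbers were 28 above background, 19 with a variance trend, 16 centred, 14 quantile normalized and 12 without the MBP term, and 0 with any 1 array left out, where 1 residual degree of freedom remains. All 12 called members were shared by the centred, quantile and trend fits, and 8 by the fit above background, which did not hold Psmb8, Psmb9, Psmb10 and Psmg4. The fit without the MBP term shared 11, with Psma6 called and Psma1 not.

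Of 260 alternative values of 18 named members, 37 changed sign and none passed the threshold. Without number 1, Psmb11 had 0.076, Psmb5 0.023, Psmb6 0.082 and Psmf1 -0.012. Without number 2, Psmb5 had 0.014, Psmb6 0.052, Psmc3ip 0.00040 and Psme3 -0.11. Quantile normalization gave 0.021 for Psmb5 and 0.031 for Psmb6, averaging probe sets 0.041 for Psmb6, and centring -0.020 for Psmf1. Leaving out 1 array in turn gave ranges of -0.46 to 0.22 for Psmb10, -0.065 to 0.046 for Psmb11, -0.11 to 0.090 for Psmb5, -0.51 to 0.36 for Psmb6 and -0.12 to 0.013 for Psmb7. It gave -0.39 to 0.19 for Psmb8, -0.31 to 0.22 for Psmb9, -0.10 to 0.20 for Psme3, -0.16 to 0.056 for Psme4 and -0.12 to 0.13 for Psmf1. It gave -0.064 to 0.0029 for Psmg2, -0.17 to 0.045 for Psmg3 and -0.36 to 0.065 for Psmg4. The causes were not tested. Without Psmd10, Psme3 and Psmc3ip, a choice made after seeing the data, the median was -0.063 over members and -0.062 over the cap, and -0.031 over the activators, of which 2 were left.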

Other observations

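Probe sets that carry the symbols of proteasome genes beside other symbols are not among the members, and their signal cannot be given to 1 gene. Both probe sets annotated with Psme2, the beta subunit of PA28, and a predicted locus were lower in number 3. The one on chromosome 15 had signals of 8.82, 9.24 and 8.05 in control and 8.79, 9.18 and 8.26 in MBP arrays, and differed in number 3 by -0.85 (adjusted p 0.0133 in limma's F test). The one on chromosome 17 differed by -0.80 (0.0309). Psme1, the partner of Psme2 in the same ring, differed by -0.54.

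The 2 probe sets annotated with Psma3 and Psma3l, alpha ring genes, differed in number 3 by -0.32 (adjusted p 0.0477 in limma's F test) and -0.25 (0.0661). The probe set of Psmc3, a base ATPase, and Slc39a13 differed by -0.13 (0.214). None of the probe sets with several symbols, proteasome genes included, was called between MBP and control, since no probe set was.

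The list of interferon signalling and antigen presentation genes, set beside the immunoproteasome, held 9 measured genes, of which 4 were above background on all arrays. Between MBP and control 7 of 9 had estimates below 0 and 0 were called. Tap2, a peptide transporter subunit, had the smallest unadjusted p of the list (0.0805 in limma's fit), with an estimate of 0.23 and no array above background. With the replicate block in limma's fit, the unadjusted p of Tap2 was 0.00645 and the adjusted p 0.865. Ifngr1, an interferon gamma receptor chain, had an estimate of -0.11. Between sample numbers, Tap1, the partner of Tap2, and Gbp2, a guanylate-binding protein, passed limma's F test (adjusted p 0.0420 and 0.0355), both with the lowest mean in number 3. They were 2 of 9 genes, against 9.62% of all probe sets and 24.1% of those above background. Tap1 was not above background on any array and Gbp2 not on those of number 3, so no size is given.

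Some arrays shared exact values. The control and MBP signals were equal to the last deposited digit for 7.9% of probe sets in number 1, 7.83% in number 2 and 9.38% in number 3. Psma8 in number 1 was among them.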
